A study of Mus musculus with 4 samples.

Results

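The proteasome subunit genes of mouse embryonic fibroblasts (MEFs) were examined at low and high cell density in cells labelled wild type or Lats2 knockout. Members were the genes whose name on the array consists of Psm, a letter from a to g and a number, leaving out Psmb8, Psmb9 and Psmb10, the interferon-inducible catalytic subunits. This rule uses names only and gave 40 genes, read by 63 probes, among 27745 gene names and 41174 probes on the array. The genes fell into the 20S core (15 genes), the 19S base (9), the 19S lid (8), the activators (4), the assembly chaperones (3) and the inhibitor PI31 (1). One of them, Psma8, the germ-cell form of a core alpha subunit, was not well above background in any of the 8 dye channels, where its log2 signal lay between 5.68 and 5.99. The other 39 passed the detection filter in every comparison, and all counts refer to them.

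The study hybridised total RNA of MEFs from C57BL/6J mice to 4 Agilent arrays with a red dye (Cy5) and a green dye (Cy3), each carrying high-density RNA in one dye and low-density RNA in the other. Arrays 1 and 2 of each genotype exchange the dyes, so that each of the 4 combinations of genotype and density (Lats2+/+ or Lats2-/-, low or high) had 1 RNA replicate read in 2 channels. Cells at low density were subconfluent after 48 h, and cells at high density had been kept for 3 to 5 days, so density and time in culture changed together. Strain and medium were the same in all groups, the knockout was that of the mice the cells came from, and the labels name no drug or construct.

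Errors come from the dye swap and cover technical variation only, and no p-value can be given with 1 replicate per genotype and density. Both arrays labelled WT shared 1 slide and scan whereas the arrays labelled KO came from other slides, so slide and genotype cannot be told apart. The Lats2 probes disagreed, 3 of 4 being higher on the arrays labelled KO at both densities at log2 ratios of 0.91 to 1.49 and 1 lower at both (-0.63 and -1.26), and genotype names therefore refer to labels. Fibroblast markers were well above background in all 8 channels for 9 of 10 genes, against 2 of 6 macrophage markers (Cd14 and Cd68, with Ptprc, Adgre1 and Itgam in none), 0 of 4 endothelial and 0 of 4 epithelial markers. Kdr, an endothelial marker, and Krt18, an epithelial one, were well above background in both low-density channels labelled WT and in no other. Tek, also endothelial, was so in 3 channels, and the other endothelial and epithelial markers in none. In RNA of whole cultures, fewer cells of a type and less RNA per cell cannot be told apart.

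The proteasome degrades proteins that carry ubiquitin chains. Its 20S core is a barrel of alpha and beta rings whose beta subunits cut the substrate, and its 19S regulatory particle consists of a base, with a ring of ATPases that unfolds substrates, and a lid, which holds the enzyme that removes ubiquitin. Activators such as PA28 can bind the core in place of the 19S particle, and dedicated chaperones bring the base together. Subunit genes are widely expressed and can be induced together by the transcription factor Nfe2l1 when proteasome activity falls.

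Promoter windows were available for 33 of the 40 genes from RefSeq (build GRCm38.p6), of which the 250 bases before the annotated start were searched on both strands for the antioxidant-response-like motif TGACNNNGC and for CCAAT. TGACNNNGC was present in 5 of the 33 (15.2%), against 11.5% of 27025 genes with a window, and its holders were Psmb5, Psmb6, Psmc6, Psmd12 and Psmd9. CCAAT was present in 12 (36.4%), against 37.5% of all. Windows of 4 genes named in the density comparison are printed. Psmc6 and Psmd12 are a base and a lid gene whose brightest probes were lower at high density in both genotypes and that hold TGACNNNGC, here read on the opposite strand and set in capitals. Psmd8 and Psme1, the lowest and the highest gene of the comparison in cells labelled WT, hold neither motif. A match of letters is a description of the sequence and no evidence of binding.
Psmc6 (chr14:45329574-45329823, plus strand): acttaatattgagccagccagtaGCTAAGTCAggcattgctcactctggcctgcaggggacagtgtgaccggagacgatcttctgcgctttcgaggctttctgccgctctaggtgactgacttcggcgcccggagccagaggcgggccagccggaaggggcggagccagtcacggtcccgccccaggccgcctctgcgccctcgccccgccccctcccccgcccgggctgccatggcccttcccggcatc
Psmd12 (chr11:107479278-107479527, plus strand): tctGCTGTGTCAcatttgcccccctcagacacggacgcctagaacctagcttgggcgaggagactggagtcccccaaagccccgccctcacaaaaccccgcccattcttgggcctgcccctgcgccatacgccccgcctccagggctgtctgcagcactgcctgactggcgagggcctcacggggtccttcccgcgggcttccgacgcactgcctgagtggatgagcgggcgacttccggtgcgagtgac
Psmd8 (chr7:29180674-29180923, minus strand): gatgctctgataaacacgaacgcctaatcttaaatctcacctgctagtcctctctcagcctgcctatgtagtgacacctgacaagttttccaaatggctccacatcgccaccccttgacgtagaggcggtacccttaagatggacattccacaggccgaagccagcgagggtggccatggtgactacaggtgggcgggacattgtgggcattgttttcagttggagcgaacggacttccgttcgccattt
Psme1 (chr14:55578244-55578493, plus strand): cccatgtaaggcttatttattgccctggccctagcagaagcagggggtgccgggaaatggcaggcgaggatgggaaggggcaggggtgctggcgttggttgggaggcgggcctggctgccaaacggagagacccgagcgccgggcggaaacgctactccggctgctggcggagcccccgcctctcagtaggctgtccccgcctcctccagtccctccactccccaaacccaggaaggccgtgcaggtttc

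At high density, most proteasome genes were lower than at low density in both genotypes, and in cells labelled WT the 19S base and lid had lower medians than the 20S core. In MEFs labelled WT the median log2 ratio of high over low density was -0.37 over the 39 genes, against 0.06 over 14873 genes tested, and 31 of 39 genes (79.5%) were below 0 on both arrays, against 39.8% of all genes. In MEFs labelled KO the median was -0.25, against 0.06 over 15435 genes, with 27 of 39 (69.2%) below 0 on both arrays, against 37.6% of all. The medians on the single arrays were -0.33 and -0.26 for arrays 1 and 2 labelled WT. A total of 28 genes were below 0 in both genotypes, 4 above 0 in both and 7 on opposite sides, and 24 were below 0 on all 4 arrays. Shares over all genes were not computed for these overlaps, so the counts are a description of the members only.

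**Figure D1:**
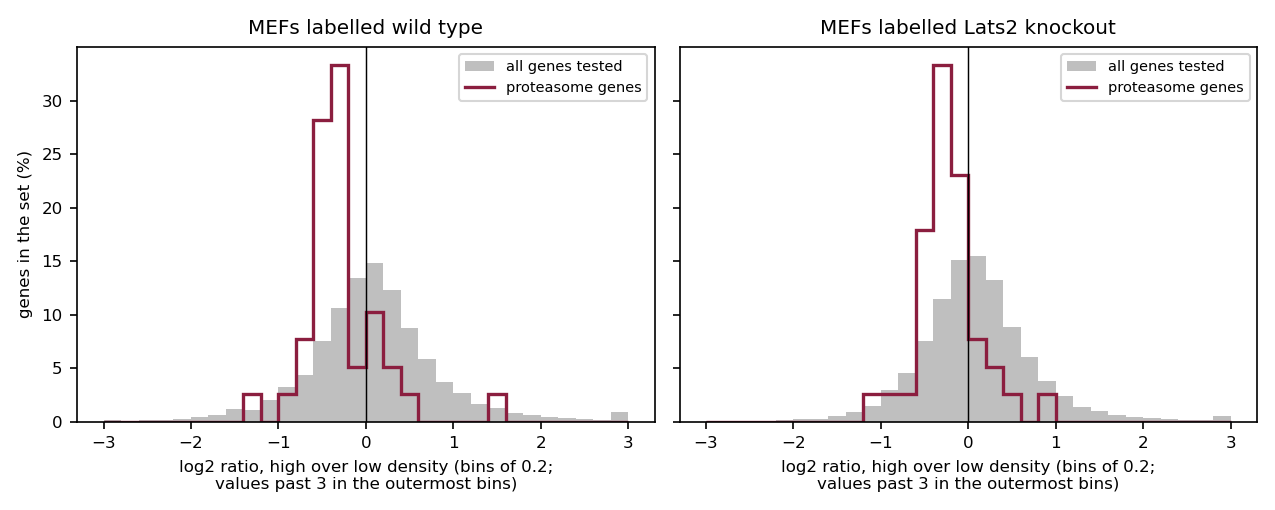
Share of genes (y axis, percent of each set) in each bin of the log2 ratio of high over low density (x axis), for all genes tested (grey) and the 39 proteasome genes (red line), in MEFs labelled WT (left) and KO (right). The proteasome genes centre at -0.37 and -0.25, left of all genes, which centre at 0.06 in both genotypes, and spread less widely.

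The shift was broad and small rather than made of large single changes. A gene was called when both arrays put it on one side of 0 and its mean ratio reached 2-fold. In cells labelled WT 2 members were called (Psme1 higher and Psmd8 lower), which is 2 of 39 where 15.5% of all genes tested were called. Cells labelled KO had 1 member called (Psmd5, lower), where 11.0% of all genes were. At the lower limit of 1.4-fold, 2 members were higher and 10 lower in cells labelled WT, where 23.5% of all genes were higher and 17.6% lower. Cells labelled KO had 2 higher and 7 lower, against 21.6% and 15.2% of all genes. The share of members called higher was thus under that of all genes, and the share called lower above it or near it. With median centring, which leaves the dye bias in each array, 3 members were lower in cells labelled WT and 4 in cells labelled KO, where 12.5% and 11.4% of all genes were. The members' medians were then further below 0 (-0.58 and -0.69), a call also needing both arrays on one side of 0. The members' spots were bright, with a median log2 signal of 13.1, at percentile 92.3 of all genes tested (median 9.45). The 2540 genes at least as bright as the members' lower quartile had a median density ratio of 0.02 in cells labelled WT, and the 2537 such genes a median of 0.00 in cells labelled KO.

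**Figure D2:**
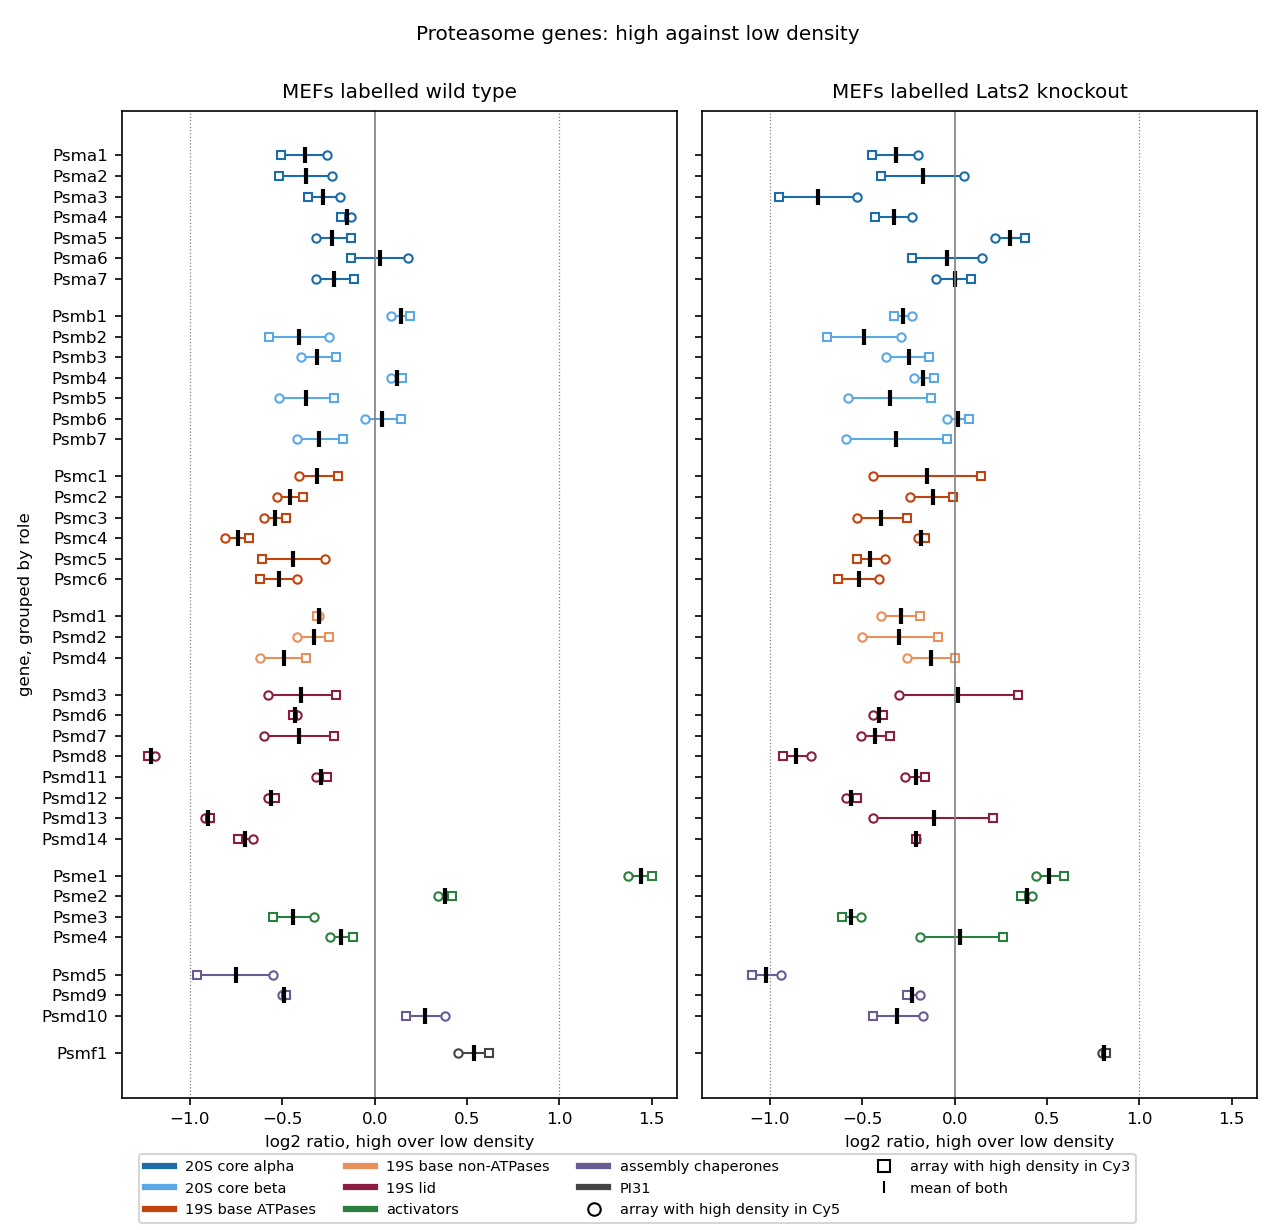
Log2 ratio of high over low density (x axis) of each proteasome gene (y axis, grouped and coloured by role) in MEFs labelled WT (left) and KO (right). Circles are arrays with high density in Cy5, squares arrays with high density in Cy3, ticks their mean, and dotted lines mark 2-fold. All 17 base and lid genes lie left of 0 on both arrays labelled WT, while Psme1, Psme2 and Psmf1 lie right of 0 in both panels.

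The 20S core showed the smaller shift of the complex in cells labelled WT, with a median of -0.25, and one of -0.27 in cells labelled KO. With median centring these were -0.51 and -0.73, the latter below that of the base (-0.67). Of its 14 genes tested, 10 were below 0 on both arrays labelled WT and 9 on both labelled KO, and none passed 1.4-fold in the cells labelled WT. The alpha and beta rings differed little from each other, with medians of -0.23 and -0.30 in cells labelled WT and -0.17 and -0.28 in cells labelled KO. The 3 catalytic beta subunits differed in their mean ratios. Psmb5, which carries the chymotrypsin-like activity, was at -0.37 and -0.35 in cells labelled WT and KO, and Psmb7, with the trypsin-like activity, at -0.30 and -0.32. Psmb6, with the caspase-like activity, lay at 0.04 and 0.02, its 2 arrays on either side of 0 in each genotype. The arrays labelled KO also differed for Psmb5 (-0.58 and -0.13) and Psmb7 (-0.59 and -0.04). On array 2 both thus lay nearer to Psmb6 (0.08) than on array 1.

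Psma3 and Psmb2 passed 1.4-fold among core genes, both lower at high density in cells labelled KO. Psma3, an alpha ring subunit, read 13.48 (Cy3) and 13.63 (Cy5) at low density and 12.68 and 12.95 at high density in log2 signal in cells labelled KO, a ratio of -0.74. In cells labelled WT it read 12.81 and 12.90 at low against 12.54 and 12.62 at high density, a ratio of -0.28. The low-density channels labelled KO thus lay above all others, and the high-density channels of both genotypes lay between 12.54 and 12.95. Psmb2, a beta ring subunit, had ratios of -0.41 in cells labelled WT (-0.25 and -0.57 on the 2 arrays) and -0.49 in cells labelled KO (-0.29 and -0.69). Array 1 labelled KO alone was thus short of 1.4-fold. Psmb1 and Psmb4, also of the beta ring, were above 0 on both arrays labelled WT (means 0.14 and 0.12) and below 0 on both labelled KO (-0.28 and -0.17). With median centring, however, the means of both genes were below 0 in cells labelled WT, that of Psmb1 being -0.12.

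The 19S base was lower at high density as a whole. All 9 genes were below 0 on both arrays labelled WT, with a median of -0.46 and a range from -0.74 to -0.30, and 8 of 9 were below 0 on both arrays labelled KO, with a median of -0.29. Among the 6 ATPases Psmc4 was lowest in cells labelled WT. Its log2 signal was 13.35 and 13.31 (Cy3 and Cy5) at low density and 12.64 and 12.54 at high density, a ratio of -0.74 or 1.67-fold lower. The cells labelled KO gave 12.49 and 12.60 at low and 12.44 and 12.29 at high density, a ratio of -0.18. The low-density channels labelled WT stood above the other 6, which lay between 12.29 and 12.64. Psmc3 (-0.54) and Psmc6 (-0.52), also ATPases, and Psmd4 (-0.49), a receptor for ubiquitin chains, completed the base genes past 1.4-fold in cells labelled WT, and Psmc6 alone passed it in cells labelled KO (-0.52). These calls rest on the brighter of 2 probes for Psmc6 and Psmd4. The other Psmc6 probe gave 0.03 and -0.26, and the mean over probes was -0.24 and -0.39 for Psmc6 in cells labelled WT and KO and -0.35 for Psmd4 in cells labelled WT, all short of 1.4-fold. Conversely, Psmc5 and Psmd2 were past it in cells labelled WT with the mean over probes (-0.54 and -0.50), their other probes giving -0.65 and -0.67. Psmd1 and Psmd2, the large scaffold subunits, had ratios of -0.30 and -0.33 on their brightest probes in cells labelled WT and of -0.29 and -0.30 in cells labelled KO.

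The 19S lid held the lowest gene in cells labelled WT. On their brightest probes, all 8 lid genes were below 0 on both arrays labelled WT (median -0.49) and 6 of 8 on both arrays labelled KO (median -0.31). Psmd8, a lid subunit read by 1 probe (mm8 chr7:28884911-28885862, minus strand, by the array annotation), had log2 signals of 12.62 and 12.56 at low and 11.33 and 11.43 at high density in cells labelled WT (Cy3 and Cy5). In cells labelled KO these were 11.95 and 11.97 at low and 11.04 and 11.17 at high density. The low-density channels lay above the high-density channels of the same genotype without overlap, and the ratio was -1.21 on average in cells labelled WT (2.31-fold lower, -1.19 and -1.23 on the 2 arrays) and -0.86 in cells labelled KO (1.81-fold lower). Psmd12 was at -0.56 in both genotypes and past 1.4-fold in both.

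Psmd13 and Psmd14 were lower at high density chiefly in cells labelled WT. Psmd13, a lid subunit with 1 probe (mm8 chr7:140737882-140738349), read 10.26 and 10.35 at low and 9.46 and 9.34 at high density in cells labelled WT (Cy3 and Cy5), a ratio of -0.90. The cells labelled KO gave 8.84 and 9.08 at low but 9.29 and 8.41 at high density, so that the 2 arrays gave -0.44 and 0.21. The high-density channels labelled KO disagreed by more than those of any other group, and the ratio there has no sign beyond the dye error. Psmd14, the deubiquitinase of the lid, read 13.66 and 13.67 at low and 12.93 and 13.01 at high density in cells labelled WT, a ratio of -0.70, and had a ratio of -0.21 on each array labelled KO. Psmd3 was at -0.40 in cells labelled WT, and in cells labelled KO its arrays gave -0.30 and 0.34. Psmd7 was read by 3 probes, of which the dimmest disagreed in cells labelled KO (1.09, against -0.53 and -0.43). In cells labelled WT that probe was at 0.07, against -0.84 and -0.41.

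**Figure D3:**
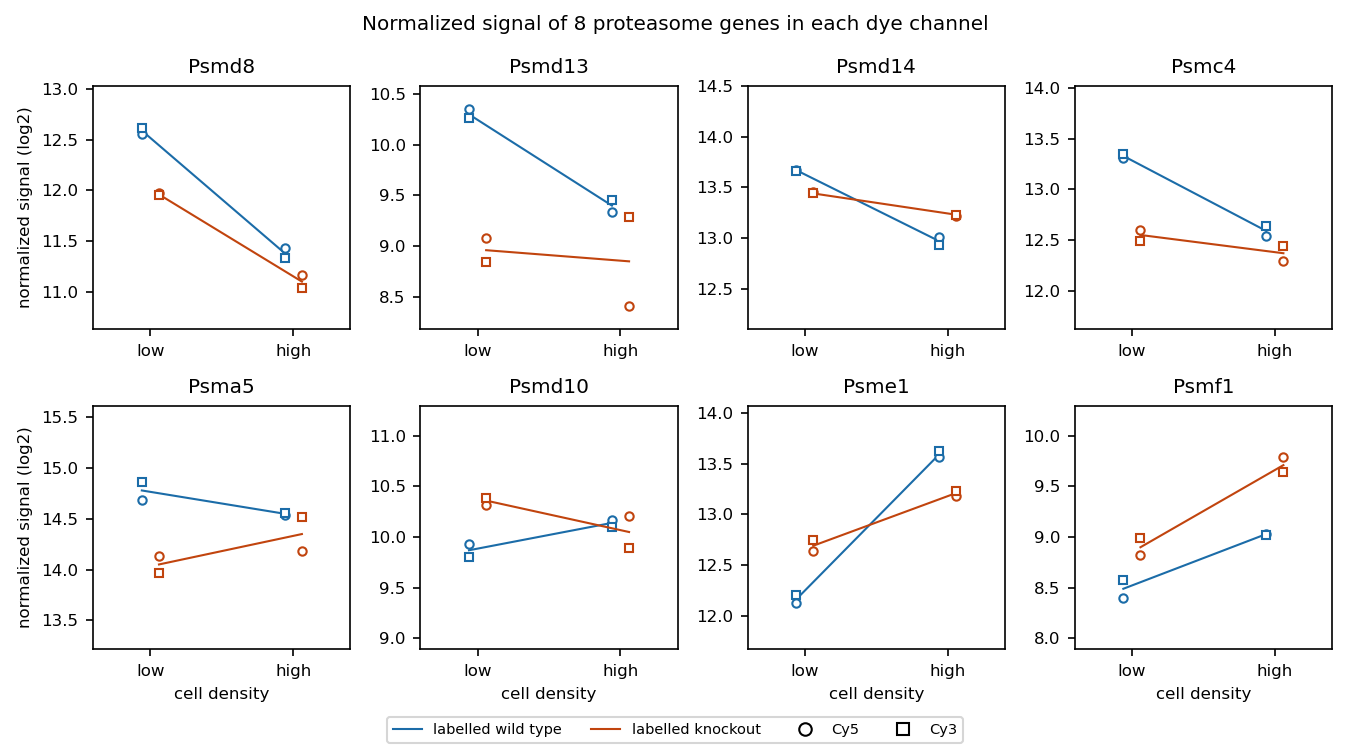
Normalized log2 signal (y axis, 2.4 units high in each panel) of 8 proteasome genes at low and high density (x axis) in MEFs labelled WT (blue) and KO (orange). Circles are Cy5 channels, squares Cy3 channels and lines join the means. Psmd8 is lower at high density in both genotypes, the lines of Psmd13, Psmd14 and Psmc4 slope down more in the cells labelled WT, those of Psme1 and Psmf1 slope up in both, and the lines of Psma5 and Psmd10 slope in opposite directions.

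The activators were split, the PA28 pair being higher at high density and the nuclear PA28 subunit lower. Psme1, the alpha subunit of the interferon-inducible PA28 cap, read 12.20 and 12.12 at low and 13.62 and 13.57 at high density in cells labelled WT (Cy3 and Cy5, mm8 chr14:54535428-54535487, plus strand). In cells labelled KO it read 12.75 and 12.64 at low and 13.23 and 13.18 at high density. All 4 high-density channels were above all 4 low-density channels. The ratio was 1.44 in cells labelled WT (2.70-fold higher, 1.37 and 1.50 on the 2 arrays) and 0.51 in cells labelled KO (1.43-fold higher), the highest value among members in the former. Psme2, its partner subunit, was at 0.38 and 0.39, short of 1.4-fold in both. RefSeq also lists a copy, Psme2b, and whether the probes can read it was not tested. Psme3, which forms the separate nuclear PA28 cap, was lower, at -0.44 in cells labelled WT and at -0.56, past 1.4-fold, in cells labelled KO. Psme4, the large PA200 activator, was at -0.18 and 0.03, the second with no settled sign (-0.19 and 0.26 on the 2 arrays). With median centring in place of loess the activators' median changed sign in both genotypes (-0.17 and -0.33, from 0.10 and 0.21), with -0.05 and -0.08 as medians over all genes. Psme1 was then at 1.18 and 0.06 and Psme2 at 0.11 and -0.20.

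Among the chaperones that assemble the base, Psmd5 was lower at high density in both genotypes. It read 12.04 and 12.17 at low and 11.21 and 11.50 at high density in cells labelled WT, a ratio of -0.75 (Cy3 and Cy5). The cells labelled KO gave 12.20 and 12.30 at low and 11.20 and 11.26 at high density, a ratio of -1.02 or 2.03-fold lower. No high-density channel reached a low-density one. Psmd9 was at -0.49 and -0.23, but its other probe gave 0.07 in cells labelled KO, and the mean over both in cells labelled WT (-0.47) was short of 1.4-fold. Psmd10, known as gankyrin, was at 0.27 in cells labelled WT and at -0.31 in cells labelled KO, with both arrays of a genotype on the same side. Psmf1, which encodes PI31, an inhibitor of the core in the test tube, was higher at high density, at 0.54 (1.45-fold) and 0.81 (1.75-fold) on its brightest probe. Another probe gave 0.59, and one designed to a different transcript record -0.40, in cells labelled WT, so the direction depends on the probe, and the mean of all probes was 0.24 and 0.49.

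**Figure D4:**
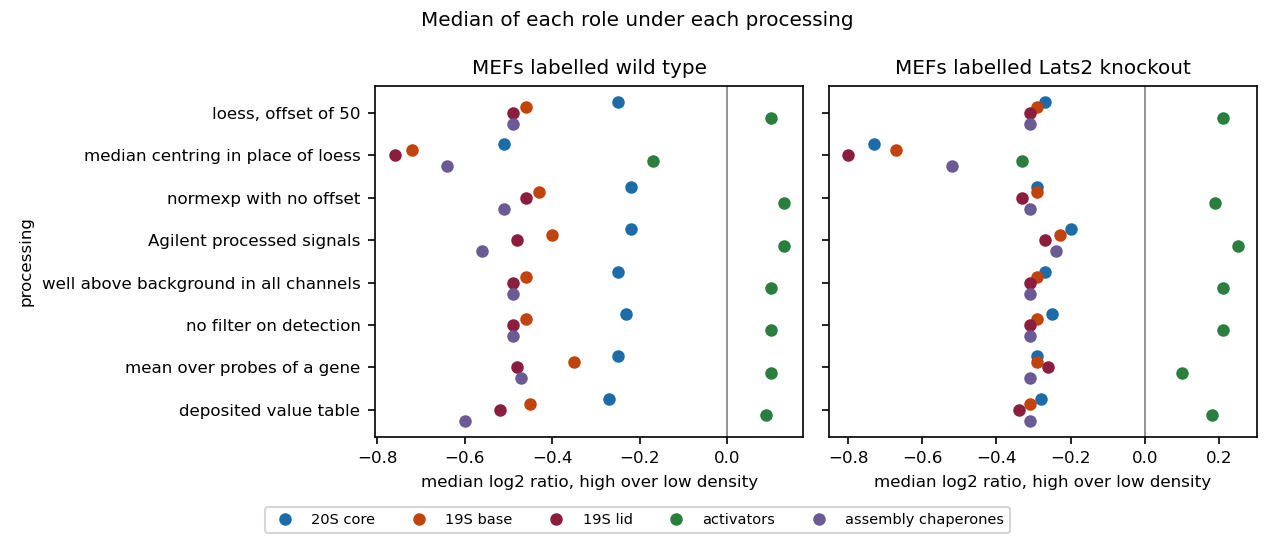
Median log2 ratio of high over low density (x axis) of each role (colours) under each processing of the arrays (y axis), for MEFs labelled WT (left) and KO (right). The 20S core, base, lid and chaperone medians lie below 0 in every row, whereas the activator median lies above 0 except with median centring.

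Whether the density ratio differed between the genotypes was examined as the ratio in cells labelled KO minus that in cells labelled WT. Over the 39 genes the median of this difference was 0.01, against 0.02 over 14147 genes, and 16 of 39 genes were below 0 (29 with median centring). The base and the lid leaned above 0, with medians of 0.14 and 0.21 (0.15 and 0.38 with the mean over probes), while the core was at -0.02. Of the 17 base and lid genes 4 (23.5%) were below 0, against 48.4% of all genes. In both dye orientations 9 of the 17 were above 0, a share near that of all genes (6104 of 14147). With median centring the base and lid medians turned to -0.06 and -0.05, where that of all genes was -0.03, so the lean depends on the processing. No member passed 2-fold, where 9.47% of all genes did. At 1.4-fold 3 were higher and 2 lower, where 15.5% and 15.9% of all genes were. These counts were 1 and 5 with median centring (13.8% and 18.8% of all genes). They were 6 and 3 without array 1 labelled KO, 1 and 1 without array 2 labelled KO, 3 and 1 without array 1 labelled WT and 5 and 3 without array 2 labelled WT. With an array left out 1 value remained per gene, so those calls rest on size alone, without the rule of the same sign. No share over all genes is given for them.

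The members past 1.4-fold in this difference came from 5 roles. Psmd13 was highest (0.79), but its 2 orientations gave 0.48 and 1.11. Psmc4 followed at 0.56 and Psma5, an alpha ring subunit, at 0.53, its ratios being -0.23 in cells labelled WT and 0.30 in cells labelled KO (-0.28 in the latter with median centring). With median centring both were short of 1.4-fold, at 0.41 and 0.22. Psme1 was lowest at -0.92 (-0.94 and -0.90) and Psmd10 next at -0.58. Of the genes short of the limit, Psmd14 was at 0.48, Psmd3 at 0.41 and Psmd4 at 0.36 above, and Psma3 at -0.46 (-0.34 and -0.59 in its 2 orientations), Psmb1 at -0.42 and Psmb4 at -0.29 below. The latter 3 passed it with median centring (-0.68, -0.65 and -0.59), and Psmd3 was then at 0.06 (0.09 without array 2 labelled KO, 0.73 without array 1). The typical deviation of 1 dye orientation from the mean was 0.133 over the members (0.191 over all probes tested). This is a technical error, and whether these differences exceed the spread between cultures was not tested.

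Cells labelled KO and WT were also compared directly at each density, within each dye. At low density the median ratio of KO over WT was -0.10 over the members, against 0.03 over 15232 genes, and 25 of 39 (64.1%) were below 0, against 48.1% of all, but 20 were with the mean over probes and 13 without scaling between arrays. One member passed 2-fold, Psmd13 (lower), where 15.6% of all genes did. At 1.4-fold 3 members were higher and 8 lower, where 20.6% and 21.9% of all genes were. At high density the median was -0.15, against 0.03 over 15596 genes, with 25 of 39 below 0, against 48.0% of all, but 10 were without scaling between arrays. No member passed 2-fold, where 14.5% of all genes did, and 1 was higher and 3 lower at 1.4-fold, where 19.2% and 20.2% were. The members' shares called lay near those of all genes or under them. Both medians turned above 0 without scaling between arrays (0.16 and 0.13), where the median of all genes rose to 0.27 at both densities, and relative to that median the members stayed below. The members past 1.4-fold were then 6 higher and 2 lower at low density and 6 higher and 0 lower at high density, and 71.1% and 71.6% of all genes called were higher, against 48.5% and 48.7% with scaling.

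**Figure D5:**
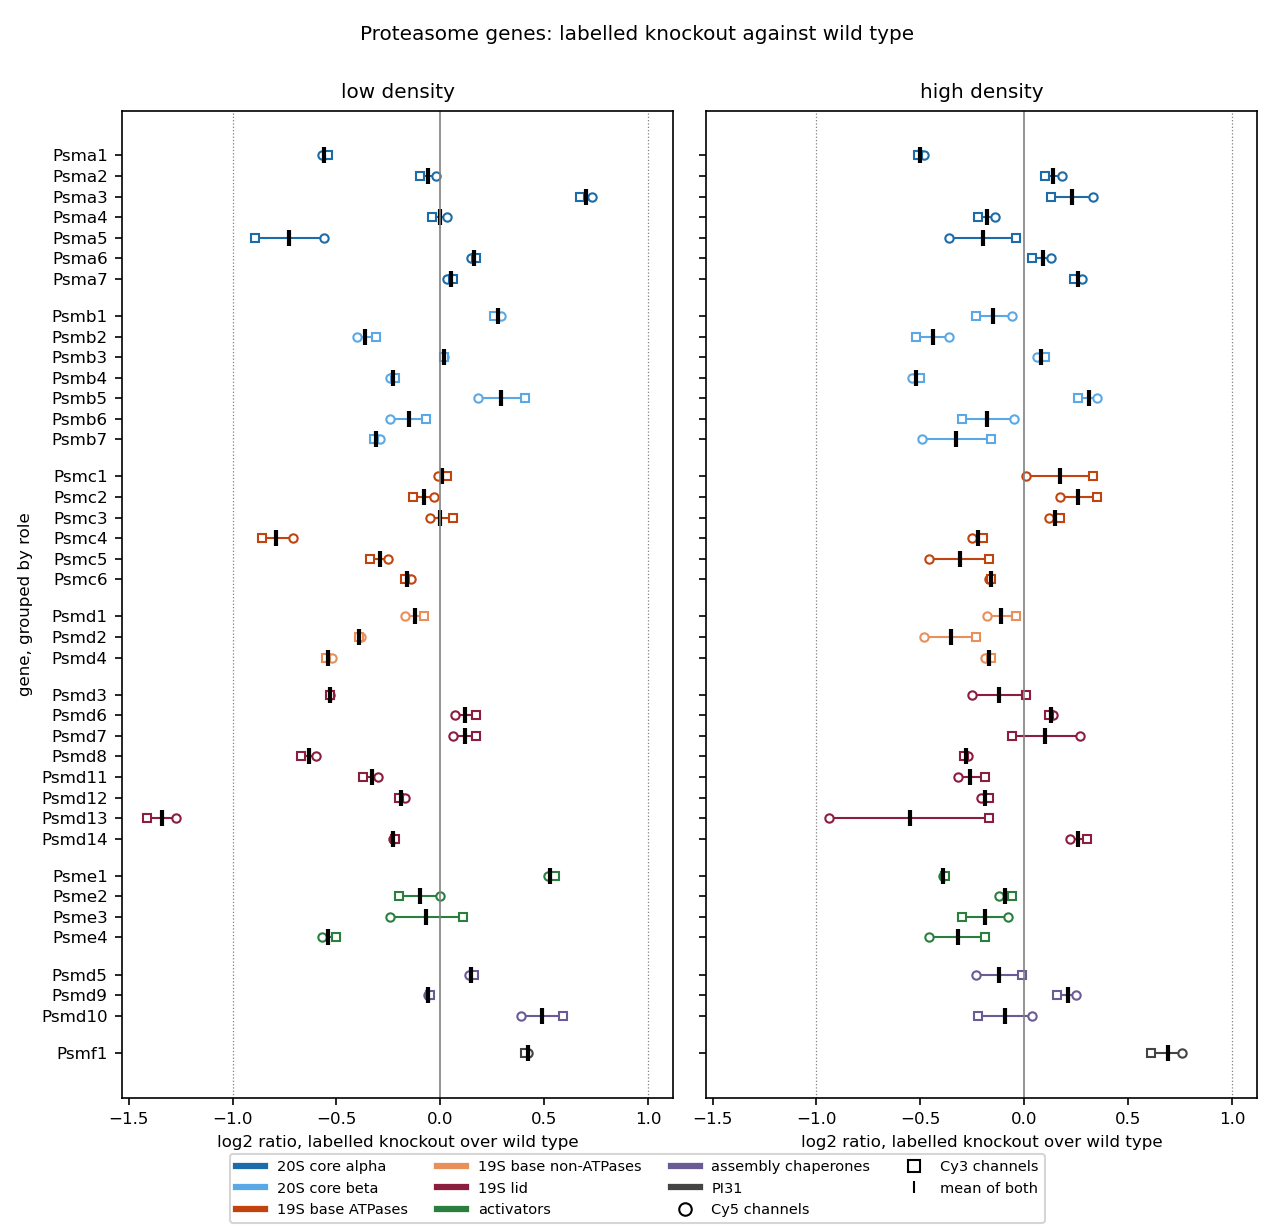
Log2 ratio of cells labelled KO over cells labelled WT (x axis) of each proteasome gene (y axis, grouped and coloured by role) at low density (left) and high density (right). Circles are Cy5 channels, squares Cy3 channels, ticks their mean, and dotted lines mark 2-fold. Psmd13 lies farthest left at both densities, with widely separated dyes at high density, and Psme1 lies right of 0 at low and left of 0 at high density.

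At low density the lower genes were from the lid, the base, the core and the activators. Psmd13 was at -1.34 (2.54-fold lower, -1.27 in Cy5 and -1.41 in Cy3) and Psmc4 at -0.79. Psma5 was at -0.73 and Psmd8 at -0.63, and the others past 1.4-fold were Psma1 (-0.56), Psmd4 and Psme4 (both -0.54) and Psmd3 (-0.53). Psma1 and Psma5 are alpha ring subunits. A dim probe of Psme4 gave 0.51, against -0.54 on both of its brighter probes, and the mean over probes ended the calls of Psme4 (-0.19) and Psmd4 (-0.29) but added Psmd2 (-0.66) and Psmc5 (-0.53). With median centring 4 genes were lower in place of 8, where 21.1% of all genes were. Psma1 (-0.46), Psmd3 (-0.35), Psmd4 and Psme4 were then no longer called. The 3 higher genes were Psma3 (0.70), Psme1 (0.53) and Psmd10 (0.49), and Psmf1 at 0.42 and Psmb5 at 0.29 came next. The base and lid together had 13 of 17 genes below 0 in both dyes (76.5%) and the core 7 of 14 (50%), against 44% of all genes, but without scaling between arrays the base and lid medians were above 0 (0.15 and 0.01). The core's median of -0.03 became 0.09 with median centring. Psmd12 and Psmd7 each had probes of both signs at low density, from -0.19 to 0.38 and from -0.60 to 0.21.

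At high density the differences were smaller. Psmd13 (-0.55, with -0.94 in Cy5 and -0.17 in Cy3), Psmb4 (-0.52) and Psma1 (-0.50) were lower past 1.4-fold, and Psmf1 (0.69, 1.61-fold) was higher. The other probes of Psmf1 gave 0.11 and 0.38, and with the mean over probes (0.39) no member was higher past 1.4-fold, while Psmd2 (-0.50) joined the lower genes. Psma1 was thus past the limit at both densities, with its 4 single values between -0.57 and -0.48, though with median centring at high density only. Psmb2 (-0.44) and Psme1 (-0.39) came next among the lower genes, and Psmb5 (0.31), Psmd14, Psma7 and Psmc2 (0.26 each) among the higher. All 4 activators were below 0 in both dyes on their brightest probes, with a median of -0.26, but the dimmest probes of Psme4 gave 0.23 and 0.20 and the median was 0.02 without scaling between arrays. Psme1 changed side with density, 0.53 at low and -0.39 at high (0.79 and -0.13 without scaling between arrays), as did Psmd14, at -0.23 and 0.26. For Psmd14 this held on its brightest probe only (the other gave -0.51 and -0.13), and without scaling between arrays it was at 0.03 and 0.52, both above 0. Of the macrophage markers measured, Cd14 had ratios of -1.80 and -1.59 at low and high density and Cd68 of -0.10 and -0.38, while Csf1r was not well above background in cells labelled WT at high density and its dyes differed in sign. Fibroblast markers had medians of 0.40 and 0.97, and the part of either list in the members' values was not tested.

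Other genes of the pathway, 27 in a list that holds further subunits, assembly factors, ubiquitin receptors, shuttles, regulators and ubiquitin itself, did not share one direction. On the array 26 were found, all well above background in all 8 channels. Their median density ratio was -0.23 in cells labelled WT and -0.21 in cells labelled KO, against 0.06 over all genes in each. The members' medians were -0.37 and -0.25. Past 1.4-fold, 6 were higher and 6 lower in cells labelled WT, where the share higher was at the background of 23.5% and the share lower near that of 17.6%. In cells labelled KO 6 were higher and 7 lower, where 21.6% and 15.2% of all genes were, so the share lower was above the background. The values that follow are a description of single genes. Ubqln1 and Rad23b, shuttle factors, were at -1.15 and -1.09 in cells labelled WT and past 1.4-fold in cells labelled KO too, whereas the shuttle factors Ubqln2 (0.46 and -0.26) and Ubqln4 (-0.30 and -0.42) were short of it in both. Uchl5 (-0.97 and -0.78) and Usp14 (-0.78 and -0.66), the deubiquitinases that dock on the base, were lower in both genotypes. So were Txnl1, a thioredoxin of the 19S particle (-0.52 and -0.43, the second short of the limit), and Adrm1, the ubiquitin receptor that holds Uchl5 (-0.43, short of it, and -0.53). The arrays differed for Txnl1, at -0.22 and -0.83 in cells labelled WT and -0.10 and -0.76 in cells labelled KO. Array 1 of each genotype was short of the limit. Nploc4 (-0.60 and -0.28) and Ufd1 (-0.41 and -0.75), partners of the segregase Vcp, passed the limit in 1 genotype each.

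Among the genes that were higher, Nfe2l2, the transcription factor of the oxidative stress response, was at 0.81 and 1.21 in cells labelled WT and KO, Ngly1, the enzyme that removes sugars from Nfe2l1, at 1.20 and 0.50, and Ddi2, the protease that cuts Nfe2l1, at 0.49 and 0.71. Nfe2l1 itself was at 0.46 and 0.39, short of 1.4-fold. Zfand5 (0.51 and 0.58), which can bind the proteasome, and Ubb (0.52 and 0.86), a polyubiquitin gene, were higher in both. Sem1, the small lid subunit whose name does not match the rule, was at 0.60 in cells labelled WT and 0.07 in cells labelled KO, apart from the 8 lid genes, which were all below 0 in the former on their brightest probes. The differences between genotypes past 1.4-fold were 1 higher and 4 lower (Ubqln2, -0.72, Ngly1, -0.70, Rps27a, -0.56, and Sem1, -0.52).

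In the direct comparison of genotypes 2 of these 26 genes were higher and 6 lower past 1.4-fold at low density, where 20.6% and 21.9% of all genes were, and 3 and 6 at high density, where 19.2% and 20.2% were. These counts lie near the background or under it, and the values that follow are a description. Rad23b (-0.96 and -0.87), Ddi2 (-0.93 and -0.71) and Ubqln4 (-0.54 and -0.66) were lower at low and high density in cells labelled KO. Ngly1 was higher at low density (0.93), where Ubqln1 (-0.62) and Vcp (-0.56) were lower. At high density Pomp, the maturation factor of the core, was at 0.55 and Nfe2l2 at 0.50, and Ubqln2 (-0.82), Uba1 (-0.56) and Ufd1 (-0.55) were lower.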

How the data were processed

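RNA of 4 combinations of genotype and density was read on 4 arrays (2 per genotype, dyes exchanged), and groups were taken from the labels. The authors extracted the arrays with Agilent Feature Extraction 10.5.1.1, and each deposited scanner file holds mean and background spot intensity, processed signal intensity, a log10 ratio of Cy5 over Cy3 and flags with other codes of 0 or 1, per the file headers. The deposited value table holds the same log10 ratio rounded, as was checked (largest difference 0.00499), turned to high over low density. The genotype field (Lats2) was followed over the source names, which have LAT2. No column was left unmapped.

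Mean intensity was background corrected (normexp, offset 50) and loess normalized in R 4.3.3 with limma 3.58.1, and further steps used Python 3.11.15 and pandas 2.3.3. This offset pulls the ratio of a dim probe towards 0. Duplicate spots were averaged, control and outlier spots were left out, and log2 ratios were signed as high over low density and averaged across the exchanged dyes. Genotypes were compared within each dye after Aquantile scaling. A probe was tested when well above background in both channels of at least 1 group compared, and the brightest probe stood for a gene. Each channel had 52.8% to 67.7% of its features well above background, 107 to 224 per array were outliers and 0 were saturated. Without replicate cultures no test was run. A call meant 2-fold, or 1.4-fold, with the same sign in both values. Named were members past either limit, the 5 highest and 5 lowest per comparison, those whose probes disagreed and pathway genes past 1.4-fold, some of which are not reported here. Other normalizations, offsets, filters, probe rules, folds and single arrays left out were tried as alternatives. Code was tested on simulated data. Members, roles and lists were chosen with earlier results of these data known. Probe coordinates come from the annotation on the array (mm8), without exons.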

Additional observations from a re-analysis of the deposited data

Results flagged for a closer look

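The 5 results here stood out because both values of one group lay on one side of 0 and both of the other on the opposite side, each mean reaching the technical error of 1 array or dye over all probes, which that of Psmb1 in cells labelled WT barely did (0.14, against 0.141). In each case the difference between the groups was not tested. For Psma5 the density ratio was -0.23 in cells labelled WT and 0.30 in cells labelled KO, a difference of 0.53 (0.22 with median centring, where both ratios were below 0). For Psmb1 these were 0.14 and -0.28, a difference of -0.42 (-0.65 with median centring, where both were below 0), and for Psmd10 0.27 and -0.31, a difference of -0.58. For Psmd14 the ratio of cells labelled KO over WT was -0.23 at low and 0.26 at high density, a difference of 0.48 (0.03 and 0.52 without scaling between arrays, so no longer on opposite sides, and -0.51 and -0.13 on its other probe), and for Psme1 0.53 and -0.39, a difference of -0.92.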

How the results depend on the processing

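The members' median density ratio stayed below 0 in both genotypes under every alternative run. In cells labelled WT it was -0.58 with median centring and -0.29 with the scanner's processed signals (-0.37 as reported), and -0.33 to -0.26 with 1 array left out. In cells labelled KO it was -0.69 and -0.19 (-0.25 as reported), and -0.27 to -0.19 with 1 array left out. The median difference between genotypes (0.01) was -0.14 with median centring, -0.02 with no offset, -0.01 in the deposited value table and 0.01 to 0.12 with 1 array left out, so it has no settled sign. KO over WT at low density (-0.10) gave -0.02 with median centring, -0.06 with the mean over probes, 0.16 without scaling between arrays and -0.14 to -0.10 with 1 array left out. At high density (-0.15) it gave -0.25 with median centring, -0.17 with no offset, -0.13 with processed signals, -0.13 with no detection filter, -0.10 with the mean over probes, -0.19 with quantile scaling and 0.13 without scaling between arrays. The median with no detection filter also counts Psma8, and over the 39 genes it was -0.15. With median centring the sign of role medians changed for the activators (-0.17 and -0.33), the base and lid differences (-0.06 and -0.05) and the core at low density (0.09, and 0.04 with quantile scaling). Without scaling between arrays the KO over WT medians of the core, base, lid and activators turned above 0 at low density (0.22, 0.15, 0.01 and 0.18), and at high density these and the chaperones did (0.12, 0.16, 0.11, 0.02 and 0.20). Members past 2-fold (2, 1, 0, 1 and 0) became 12, 9, 5, 11 and 4 at 1.4-fold. With median centring there were 4 in cells labelled WT (Psmc4 and Psmd13 added), 3 in cells labelled KO (Psmd8 and Psmd12 added) and 1 in the difference (Psme1). With 1 array left out the count in cells labelled KO was 0 to 1, being 0 without array 2 labelled KO, and that in the difference 0 to 1, being 1 without either array labelled KO. Such calls rest on size alone, since 1 value remained per gene. Members past 1.4-fold with median centring were 1 higher and 3 lower in cells labelled WT and 0 and 4 in cells labelled KO, the arrays then often differing in sign. No paired analysis was possible because each genotype has 1 RNA replicate per density, and the replicate numbers mark the dye swap. Other causes of these shifts were not tested. Signal over background limits dim probes such as that of Psma8.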
